A study of Mus musculus with 32 samples.

Results

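The JAK kinases and STAT factors are the kinases and transcription factors that carry signals from cytokine receptors to the nucleus. Their transcripts were followed in mouse haematopoietic stem cells (HSC) and multipotent progenitors (MPP) by RNA-seq. The members were taken by symbol from a fixed list and found by their Ensembl identifiers: 4 kinases (Jak1, Jak2, Jak3 and Tyk2) and 5 factors (Stat2, Stat3, Stat5a, Stat5b and Stat6), 9 of 41388 genes in the files. The list was given by name, with no threshold on a measured value. All 9 had enough counts for the tests in both cohorts.

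The study measured 24 RNA libraries from C57BL/6 mice, and 8 ChIP samples were not analysed here. Per the labels both populations were Lin-, cKit+, Sca1+ and CD48-, with HSC carrying CD150 and MPP lacking it. In the Vav cohort, mice of 8 weeks carried Vav-CRE, a recombinase active throughout the blood system, and were wild-type (control) or Jarid2-KO, with 3 libraries per genotype and cell type. In the Mx1 cohort, mice of 10 weeks carried Mx1-CRE, a recombinase driven by an interferon-responsive promoter and switched on 2 months earlier with pIpC, a double-stranded RNA that induces interferon. These mice were wild-type (control), Jak2V617F, or Jak2V617F with Jarid2KO (here the double mutant), with 2 libraries per genotype and cell type. All Mx1 groups shared the pIpC treatment and all groups of a cohort the same Cre driver, per the labels. Each library came from pooled male and female mice, described in the same protocol as 5 of each sex and as 3 of each sex, so p-values measure the spread between such pools. Jarid2 belongs to Polycomb repressive complex 2, where it helps bring the complex to chromatin, and Jak2V617F is the constitutively active Jak2 of myeloproliferative disease.

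A JAK kinase sits on the cytoplasmic tail of a cytokine receptor and phosphorylates the receptor and a STAT once the ligand has bound; the STAT pair then enters the nucleus and switches on genes, among them the SOCS and CISH inhibitors that close the loop. In blood stem and progenitor cells Jak2 serves the erythropoietin and IL-3 family receptors and works mainly through Stat5a and Stat5b. Jak1 and Tyk2 serve the interferon receptors, and Stat2 joins Irf9 in the interferon-stimulated complex ISGF3.

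The libraries held 10473535 to 27232379 counts in the Vav cohort and 7852483 to 20724168 in the Mx1 cohort. Jarid2 itself, counted over all exons, was no lower where the label says Jarid2-KO (80.2 to 144 CPM, the count scaled to the library total, in Vav HSC against 77.6 to 109 in control), so it does not check those labels. In the Vav cohort the 10 HSC markers summed to between 2202 and 2726 CPM in every library, and Slamf1, which encodes CD150, was lower in control MPP than in control HSC (log2 fold change -3.90, SE 0.46, edgeR adjusted p = 0.000461). In the Mx1 cohort the same markers summed to 110 to 261 CPM in control and Jak2V617F libraries and to 699 to 2416 in double mutants, while 10 granulocyte and monocyte markers summed to 10078 to 41286 CPM in the former and 1770 to 5727 in the latter. None of these markers was at 0 in a whole group, but the Mx1 control and Jak2V617F libraries labelled HSC and MPP held few HSC marker transcripts. A set of 6 Mx1 libraries held 6.10 to 9.31% of their counts in 20 heart muscle genes, and the other 6 held 0.526 to 1.22%; in Vav libraries these genes summed to at most 33.0 CPM. The first Jarid2-KO MPP library of the Vav cohort also stood apart, with 1.60% of counts in granulocyte and monocyte markers against 0.0861 to 0.937% in the other 11. It also held 0.116% in immediate early genes (at most 0.0257% in the others), 0.0584% in stroma and endothelium markers (at most 0.0201%) and 0.559% in mitochondrial genes (1.63 to 3.46%).

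Per length, the family had a steady order. In RPKM, which divides CPM by transcript length, Jak1 and Stat6 held the first and second places in all 12 Vav libraries and Jak3 the last or next to last. Jak1, the kinase shared by interferon, gp130 and common gamma chain receptors, ranged from 58.0 to 111 RPKM in Vav libraries (median 71.5), and Stat6, the factor of IL-4 and IL-13 signals, from 27.9 to 63.0 (median 47.3). The middle of the order was crowded, with medians of 15.9 RPKM for Stat2, 15.9 for Stat3, 13.5 for Stat5a, 13.3 for Jak2, 13.0 for Stat5b and 9.44 for Tyk2. Jak3, the kinase that pairs with the common gamma chain of lymphoid cytokine receptors, had a median of 2.45 RPKM.

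In Vav control HSC the mean levels fell into clear steps only at the ends of that order. Jak1 (89.5 RPKM) did not overlap Stat6 (43.6), Stat6 did not overlap Stat2 (16.1), and Tyk2 (9.30) did not overlap Jak3 (1.59). The 6 genes from Stat2 down to Tyk2 overlapped each with its neighbour in the 3 libraries and were not set apart by their spread. In Vav control MPP, Stat2 (22.3 RPKM), the interferon factor, also stood clear of Stat3 (17.0) below it and Stat3 clear of Stat5b (12.3). Mx1 libraries kept Jak1 within the first 2 places and Stat6 within the first 3, at medians of 40.4 and 36.5 RPKM, and Jak3 was again low (median 2.45). Levels are not compared between the cohorts by a test, because 14573 genes are listed with different exon parts in the 2 sets of files.

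**Figure D1:**
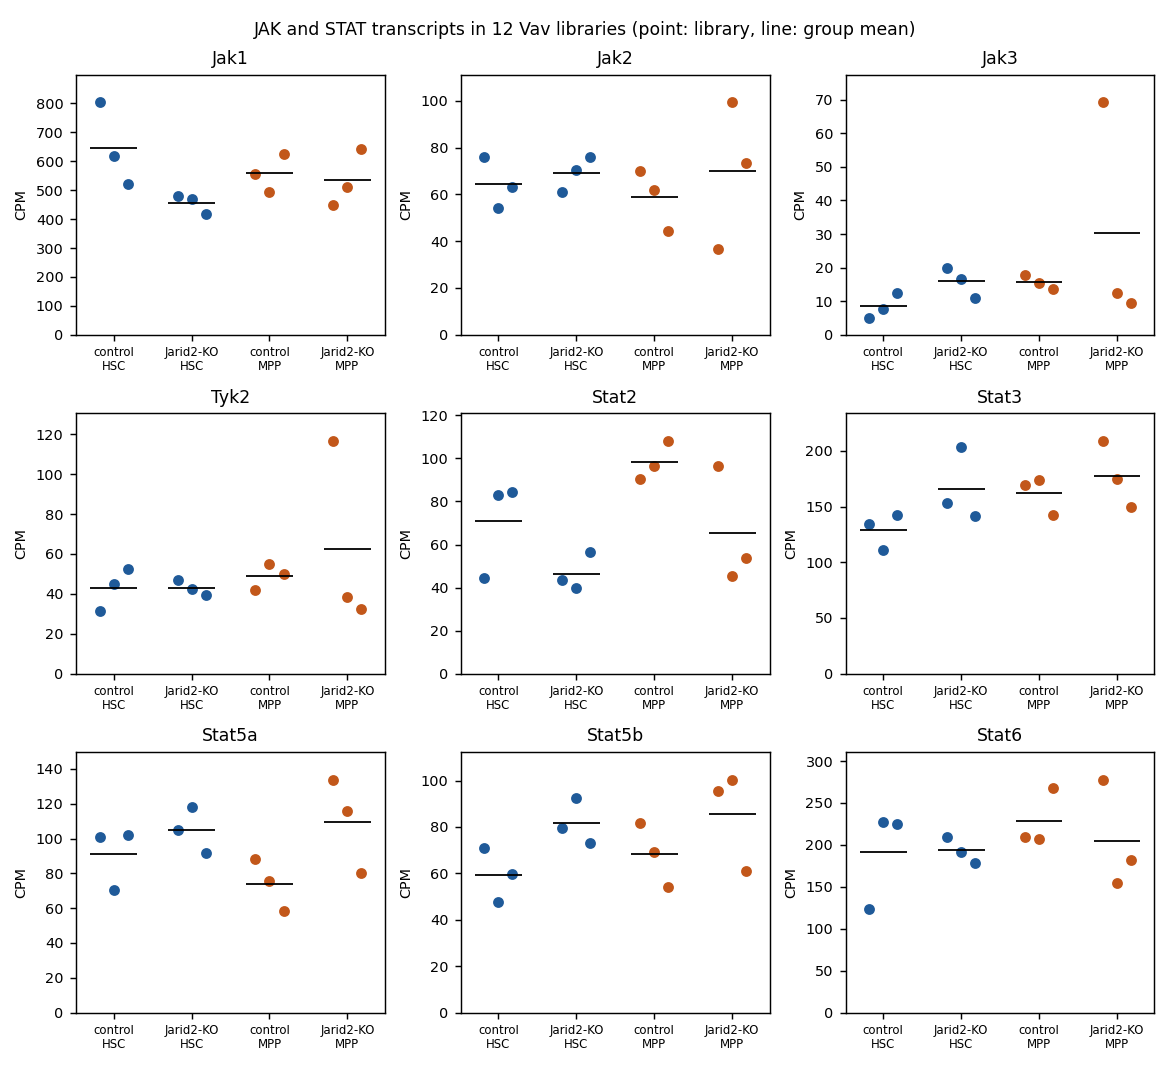
CPM (linear axes from 0) of the 9 genes in the 12 Vav libraries, by genotype and cell type; each point is a library and each line a group mean. Jak1 in Jarid2-KO HSC (419 to 481) lies below all control HSC libraries (522 to 803), and 1 Jarid2-KO MPP library is far from the others in Jak3, Tyk2 and Stat2.

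The question in the Vav cohort was what loss of Jarid2 does to these genes in stem cells. In HSC the kinase Jak1 was the member with the clearest separation. It stood at 803, 617 and 522 CPM in the control libraries and at 481, 469 and 419 in Jarid2-KO. Every control library was higher than every Jarid2-KO library, yet the first control library was far above the other controls. Over the alternative settings, left-out libraries among them, the Jak1 log2 fold change ran from -0.73 to -0.39. The fitted difference was a log2 fold change of -0.57 (95% interval -1.04 to -0.11, SE 0.22, edgeR adjusted p = 0.214), which does not pass the threshold of 0.05 over all genes. In MPP the Jak1 libraries overlapped, with 557, 492 and 626 CPM in control and 450, 511 and 642 in Jarid2-KO, and the log2 fold change was -0.07 (interval -0.53 to 0.40). The difference of the Jak1 effect between the cell types was 0.51 (MPP minus HSC, interval -0.15 to 1.17) and also did not pass.

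Stat2, the interferon-stimulated gene factor, had lower means in Jarid2-KO in both cell types. In HSC it stood at 44.5, 83.2 and 84.6 CPM in control and at 43.4, 39.6 and 56.4 in Jarid2-KO. The first control library, the same that was highest in Jak1, lay among the Jarid2-KO values, so the groups overlapped. Over the alternative settings the Stat2 log2 fold change in HSC ran from -0.92 to -0.48. In the main fit it was -0.68 (interval -1.33 to -0.03, SE 0.31, edgeR adjusted p = 0.278). In MPP the values were 90.3, 96.4 and 108 CPM in control and 96.6, 45.5 and 53.9 in Jarid2-KO. Here the first Jarid2-KO library, the one that stands apart, lay among the controls, and the log2 fold change was -0.58 (interval -1.23 to 0.07, adjusted p = 0.315). Without that library the interval was -1.56 to -0.45 (adjusted p = 0.0858). In limma-voom each value was weighted by its estimated precision and each library by its estimated quality. With it, Stat2 passed in HSC (log2 -0.81, adjusted p = 0.0326) and in MPP (log2 -0.92, adjusted p = 0.0496). The call of Stat2 thus depends on the tool and its weights.

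The Stat5 paralogs, the main STATs of Jak2 in these cells, had higher means in Jarid2-KO. Stat5a in MPP stood at 88.0, 75.6 and 58.3 CPM in control and at 134, 116 and 79.9 in Jarid2-KO. The lowest Jarid2-KO library fell between the control libraries, and the log2 fold change was 0.58 (interval 0.11 to 1.05, SE 0.22, edgeR adjusted p = 0.179). Without the third Jarid2-KO library it was 0.75 and passed (adjusted p = 0.0471), and without the first it was 0.39 (adjusted p = 0.37). In HSC, Stat5a stood at 101, 70.3 and 102 CPM in control and at 105, 118 and 91.8 in Jarid2-KO, with a log2 fold change of 0.15 (interval -0.32 to 0.62).

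Stat5b in HSC stood at 71.1, 47.5 and 59.5 CPM in control and at 79.6, 92.5 and 73.2 in Jarid2-KO. All 3 Jarid2-KO libraries were above all 3 controls by a small margin, with a log2 fold change of 0.40 (interval -0.08 to 0.88, edgeR adjusted p = 0.370). In MPP it stood at 81.9, 69.1 and 54.2 CPM in control and at 95.6, 100.2 and 60.9 in Jarid2-KO, overlapping, with a log2 fold change of 0.33 (interval -0.15 to 0.81). By the coordinates listed with the counts, the 2 genes lie 8626 bases apart on mm10 chromosome 11 (Stat5b 100780731 to 100850724 on the minus strand, Stat5a 100859351 to 100885169 on the plus strand). RefSeq ends Stat5b nearer to Stat5a, at 100859004. The 2 genes are close in sequence, so the counting may have split or dropped reads that match both. Stat5a also overlaps Stat3 (100885098 to 100939540, minus strand) by 72 bases, and the sources used here do not say that reads were counted by strand.

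Jak2, the kinase mutated in the Mx1 cohort, stayed close to control in Vav HSC. It stood at 76.0, 54.1 and 63.3 CPM in control and at 61.1, 70.4 and 75.9 in Jarid2-KO HSC, a log2 fold change of 0.03 (interval -0.56 to 0.63). In MPP the controls stood at 70.0, 61.7 and 44.4 CPM and Jarid2-KO at 36.7, 99.3 and 73.4. The Jarid2-KO MPP libraries thus spanned both the lowest and the highest Jak2 value of the cohort, and the log2 fold change was 0.25 (interval -0.35 to 0.84), or 0.54 (adjusted p = 0.21) without the first of them.

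Jak3 and Tyk2 carried the widest spread. Jak3 in HSC stood at 5.07, 7.80 and 12.6 CPM in control and at 19.9, 16.8 and 11.1 in Jarid2-KO (log2 fold change 0.85, interval -0.42 to 2.12). In MPP it stood at 17.9, 15.4 and 13.7 CPM in control, and at 69.2, 12.5 and 9.45 in Jarid2-KO. A single library, the first Jarid2-KO MPP, held several times more Jak3 than any other, and the log2 fold change of 0.99 turned to -0.53 without it. Tyk2, the kinase of the type I interferon and IL-12 receptors, showed the same library: 116 CPM against 38.3 and 32.6 in the other Jarid2-KO MPP and 42.1, 54.9 and 49.7 in control. Its log2 fold change of 0.37 turned to -0.49 without that library, and neither value passed. The part of the granulocyte and monocyte, immediate early, stroma and mitochondrial shares by which that library stands apart in its Jak3 and Tyk2 values was not tested.

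The remaining factors differed little. Stat3, which acts below G-CSF and IL-6 receptors, ranged from 111 to 142 CPM in control HSC and from 142 to 204 in Jarid2-KO HSC (log2 fold change 0.30, interval -0.10 to 0.71), and from 142 to 174 and 149 to 209 in MPP (0.14, interval -0.26 to 0.55). Stat6 ranged from 123 to 228 CPM in control HSC and from 179 to 209 in Jarid2-KO HSC (-0.06, interval -0.64 to 0.52), and from 207 to 268 and 155 to 277 in MPP (-0.15, interval -0.73 to 0.43). Tyk2 in HSC stood at 31.6, 45.0 and 52.3 CPM in control and 47.2, 42.2 and 39.3 in Jarid2-KO (-0.07, interval -0.89 to 0.76).

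Counted together, 0 of 9 members passed the edgeR test in HSC, beside 0.569% of all 15818 genes tested (0.253% higher and 0.316% lower), and 0 of 9 in MPP, beside 0.948% (0.512% higher and 0.436% lower). At an unadjusted p under 0.05 there were 2 members in HSC, both lower (Jak1 and Stat2), beside 17% of all genes, and 1 in MPP, higher (Stat5a), beside 19.3%. DESeq2 also called 0 in each cell type, beside 4.36% of all genes in HSC and 7.01% in MPP, and limma-voom called 1 in each, Stat2, beside 8.97% and 2.91%. In HSC, 2 of 9 members did not overlap between the groups, Jak1 lower and Stat5b higher, beside 26.8% of all genes (10.7% lower and 16.2% higher). In MPP all 9 overlapped, beside 21.7% of all genes that did not. The median log2 fold change of the 9 was 0.03 in HSC and 0.25 in MPP, against -0.03 and 0.02 over all genes tested. The MPP median includes Jak3 and Tyk2, whose log2 fold changes turned negative without the first Jarid2-KO MPP library, so it depends on that library. For the difference between the cell types 0 of 9 members passed, beside 0% of all genes. At an unadjusted p under 0.05 there were 0 members, beside 2.65% of all genes. DESeq2 and limma-voom also called 0 members there, and their shares of all genes are not given for it.

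**Figure D2:**
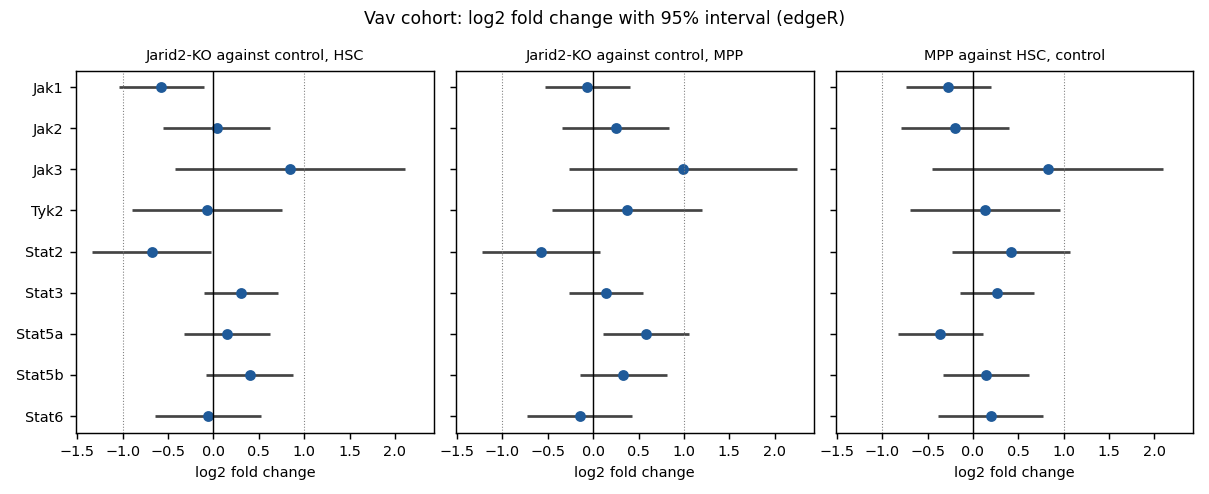
Log2 fold change (points) with its 95% interval (lines) from edgeR for the 9 genes in 3 Vav comparisons; dotted lines mark a log2 of 1 in either direction. The intervals of Jak1 and Stat2 in HSC and of Stat5a in MPP exclude 0 before adjustment over all genes, and Jak3 has the widest intervals.

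Between the cell types of control mice, no member passed either (0 of 9 by edgeR, DESeq2 and limma-voom, beside 1.17% of all genes by edgeR, and 0 at an unadjusted p under 0.05, beside 8.44%). For the comparisons of cell types in this paragraph the shares of all genes by DESeq2 and limma-voom are not given, so their counts have no background beside them. Jak3 and Stat2 were higher in all control MPP than in all control HSC libraries, which is 2 of 9 members beside 10.7% of all genes higher without overlap and 18.3% in either direction. Stat2 stood at 90.3 to 108 CPM in MPP against 44.5 to 84.6 in HSC (log2 fold change 0.41, interval -0.24 to 1.06), and Jak3 at 13.7 to 17.9 against 5.07 to 12.6 (0.82, interval -0.45 to 2.09). The other 7 overlapped, with log2 fold changes from -0.36 (Stat5a) to 0.27 (Stat3). Between Jarid2-KO MPP and HSC 0 of 9 members passed with the same 3 tools, beside 0.525% of all genes by edgeR (0.177% higher and 0.348% lower), 0 had an unadjusted p under 0.05, beside 10.8%, and all 9 overlapped (beside 11.7% of all genes that did not).

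Around the members, the pathway's other genes were read from lists by role, beside 0.253% of all genes higher and 0.316% lower in HSC and 0.512% and 0.436% in MPP. Of 34 receptor genes tested, 0 passed in either direction in Vav HSC and 1 rose in Jarid2-KO MPP, Il9r, the specific chain of the interleukin-9 receptor, from a mean of 0.650 (SD 0.105) to 3.89 (SD 1.29) CPM (3 libraries per group; log2 fold change 2.57, SE 0.44, edgeR adjusted p = 0.0131). Its level is low in every library. Of 12 ligand genes tested, 0 passed in HSC and 1 fell in MPP, Il12a, which encodes the p35 chain of interleukin-12, from 92.5 (SD 9.90) to 45.4 (SD 11.7) CPM (log2 -1.03, SE 0.21, adjusted p = 0.0318). Il12a is also on the list of lymphoid-primed markers, of which 3 of 10 fell in the same comparison. Of 18 adaptors and partners, 0 passed in HSC and 1 rose in MPP, Sh2b2, an SH2 adaptor that binds Jak2, from 1.21 (SD 0.167) to 8.62 (SD 4.15) CPM (log2 2.84, SE 0.52, adjusted p = 0.0185).

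Some inhibitors and targets downstream passed the test, beside the same shares of all genes (0.253% higher and 0.316% lower in HSC, 0.512% and 0.436% in MPP). Of 22 inhibitors, 1 rose (Cish) and 1 fell (Usp18) in Jarid2-KO HSC, and 2 rose (Socs2 and Cish) and 1 fell (Usp18) in MPP; the list's median log2 fold change was 0.08 and 0.07, close to that of all genes. Cish and Socs2 are feedback inhibitors of STAT5 signals, and Usp18 restrains the type I interferon receptor. Of 14 STAT5 targets tested, 3 rose and 0 fell in HSC (Id1, Pim2 and Cish; list median 0.51) and 2 rose and 0 fell in MPP (Socs2 and Cish; list median 0.89, or 0.43 without the first Jarid2-KO MPP library). Of 28 ISGF3 targets, 0 rose and 3 fell in HSC (Oas2, Ifit3 and Usp18; median -0.51) and 0 rose and 5 fell in MPP (Ifi27l2a, Oas2, Ifit3, Oasl2 and Usp18; median -0.76). Of 13 STAT3 targets and of 8 STAT6 targets, 0 passed in either cell type, with list medians of 0.55 and 0.44 in HSC and 0.34 and 0.12 in MPP. These lists share genes and the largest of these changes were already known when they were used. In these bulk samples, fewer cells of a type and less RNA per cell cannot be told apart. The 10 granulocyte and monocyte markers moved as well: 8 were higher in HSC and 7 in MPP at an unadjusted p under 0.05 (beside 17% and 19.3% of all genes in either direction), 0 of them past the adjusted threshold (1 in MPP at an unadjusted p without the first Jarid2-KO library), with summed levels of 2336 to 5880 CPM in Jarid2-KO HSC against 861 to 2360 in control, and of 4678 to 16009 in Jarid2-KO MPP against 3170 to 4433. The 10 macrophage and dendritic markers summed to 175 to 293 CPM in Jarid2-KO HSC against 505 to 529 in control and to 316 to 335 in Jarid2-KO MPP against 570 to 774, without overlap. Of 9 of these tested, 2 fell in HSC (H2-Aa and Cd74) and 3 in MPP (those and Cd68). The 10 immediate early genes summed to 107 to 257 CPM in Jarid2-KO HSC against 54.9 to 122, and to 63.0 to 1155 in Jarid2-KO MPP against 50.1 to 72.0, with 0 past the test. The 10 MPP and lymphoid-primed markers, Il12a among them, summed to 757 to 1035 CPM in Jarid2-KO MPP against 1611 to 1832 in control, without overlap. In HSC they summed to 354 to 525 CPM in Jarid2-KO against 395 to 498 in control. The part of these marker sets in the list counts was not tested.

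**Figure D3:**
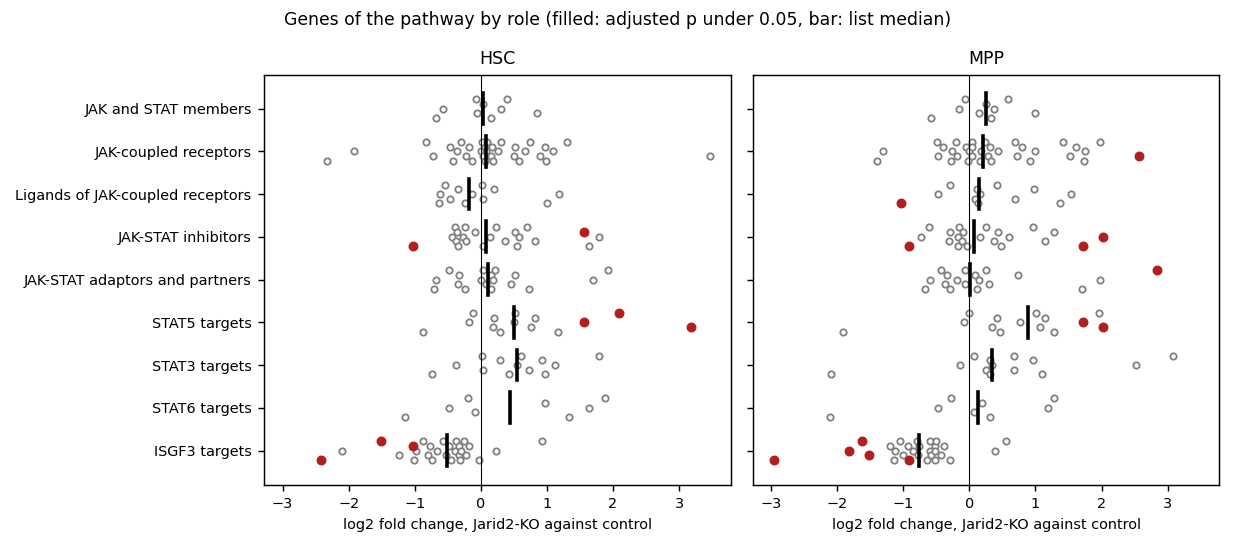
Log2 fold change in Jarid2-KO against control of each tested gene (points) in 9 lists by role, in Vav HSC and MPP; filled points passed the edgeR test at an adjusted p under 0.05 and black bars are list medians. The 9 members lie between -0.68 and 0.99 with none filled and medians of 0.03 and 0.25, and the 28 ISGF3 targets have medians of -0.51 and -0.76. The members' MPP median depends on the first Jarid2-KO MPP library, without which Jak3 and Tyk2 turn negative.

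Some of these pathway genes differed between the cell types of control mice, and they are named without the numbers tested in their lists. In control MPP against control HSC, the interleukin-10 receptor chain Il10ra was higher (log2 2.57, SE 0.40, edgeR adjusted p = 0.00446), and Il4 and Socs2 were lower (log2 -1.46 and -1.20), beside 0.512% of all genes higher and 0.657% lower. Among the 28 ISGF3 targets and the 8 STAT6 targets 0 passed there.

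The promoters of the members were searched for the sites that STAT complexes bind. RefSeq promoter windows (GRCm38.p6, 250 bases before to 50 after a start) matched all 9 members with 11 windows. The STAT dimer core TTCNNNGAA, which reads the same on both strands, was in 8.3% of 32851 windows and in 0 of the 11. The ISGF3 core, GAAA followed after any 2 bases by GAAA, searched on both strands, was in 3.44% of windows and in 1 of the 11, that of Stat2. The Stat2 window is shown because Stat2 is a subunit of ISGF3 and had lower means in Jarid2-KO; it covers chr10:128270248-128270497 on the plus strand, the 250 bases before the start, and capitals mark the core at 128270276 to 128270285, 222 bases before the start. The pair of STAT cores at the start of Cish (chr9:107296659-107296678, plus strand, cores in capitals) is shown beside it as the inhibitor whose transcripts rose in both cell types. A match describes letters and not binding.
Stat2 promoter: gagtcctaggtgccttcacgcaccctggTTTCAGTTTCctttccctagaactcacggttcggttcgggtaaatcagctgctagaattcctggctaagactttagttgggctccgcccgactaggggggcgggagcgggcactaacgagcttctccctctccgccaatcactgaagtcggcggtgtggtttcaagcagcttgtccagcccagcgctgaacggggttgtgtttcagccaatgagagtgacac
Cish core pair: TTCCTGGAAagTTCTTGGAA

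The Mx1 cohort asked what the Jak2V617F allele does and what Jarid2 loss adds to it. Jak2 comes first as the mutated gene, although counts cannot show its base change. In HSC it stood at 18.6 and 34.9 CPM in control, 34.0 and 43.6 in Jak2V617F, and 43.8 and 48.3 in the double mutant. The double mutant values lay above all of the others, and the control and Jak2V617F values overlapped. In MPP it stood at 57.3 and 46.3 CPM in control, 37.9 and 47.2 in Jak2V617F, and 58.8 and 48.3 in the double mutant. The log2 fold change of Jak2V617F against control was 0.47 in HSC (interval -0.57 to 1.51) and -0.42 in MPP (interval -1.45 to 0.62), and that of the double mutant against Jak2V617F was 0.00 in HSC (interval -1.03 to 1.04) and 0.26 in MPP (interval -0.78 to 1.30). With 2 libraries per group these intervals reach about a log2 of 1 either way. CPM and the fit also differ in scaling: the double mutant HSC lay above Jak2V617F in CPM but not in the TMM-scaled fit, where the log2 fold change against control was 0.48 (interval -0.56 to 1.52).

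Stat3 and Jak1 had higher CPM in both double mutant HSC libraries than in the other HSC libraries. Stat3 stood at 104 and 99.5 CPM in control, 74.5 and 139 in Jak2V617F, and 190.4 and 208 in double mutant HSC. In MPP the 3 genotypes stood between 134 and 196 CPM with no order. The log2 fold change of double mutant against Jak2V617F in HSC was 0.67 (interval -0.39 to 1.74). Jak1 stood at 312 and 197 CPM in control, 291 and 249 in Jak2V617F, and 324 and 463 in double mutant HSC, and at 294 and 202, 207 and 263, and 308 and 393 in MPP. The double mutant was above all other libraries of its cell type in both, with log2 fold changes against Jak2V617F of 0.26 (interval -0.93 to 1.46) and 0.50 (interval -0.70 to 1.69). In the Vav HSC comparison of Jarid2-KO with control the fitted Jak1 value had the other sign, and neither passed. The Mx1 groups also differ in marker content. HSC markers summed to 871 to 2416 CPM in double mutant HSC, 185 to 202 in control and 110 to 230 in Jak2V617F HSC. Granulocyte and monocyte markers summed to 1770 to 2644, 33383 to 41286 and 18745 to 24444 CPM. Both sets differed in the same directions in MPP, and their part in the Stat3 and Jak1 values was not tested.

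Stat5a ranged from 24.7 to 106 CPM over the Mx1 libraries and Stat5b from 53.2 to 100.4. Stat5a in the double mutant stood at 42.7 and 106 CPM in HSC and 44.1 and 63.4 in MPP, against 46.1 and 28.5 and 29.7 and 37.7 in Jak2V617F (log2 fold changes 0.66 and 0.59, neither past the test). Stat5b was highest in control MPP, at 100.4 and 90.2 CPM, above both Jak2V617F MPP libraries at 67.3 and 63.4 (log2 -0.67, interval -1.63 to 0.29). Per length, the ratio of Stat5b to Stat5a had a median of 0.994 over Vav libraries (0.750 to 1.20). Over Mx1 libraries its median was 2.19 (1.14 to 4.70). Cohort, age, Cre driver, pIpC treatment, marker content, heart RNA and library processing cannot be told apart in that difference. Within the Mx1 cohort the ratio was 1.64 to 4.70 in libraries with more than 4% heart RNA. In the other Mx1 libraries it was 1.14 to 2.61, with overlap.

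**Figure D4:**
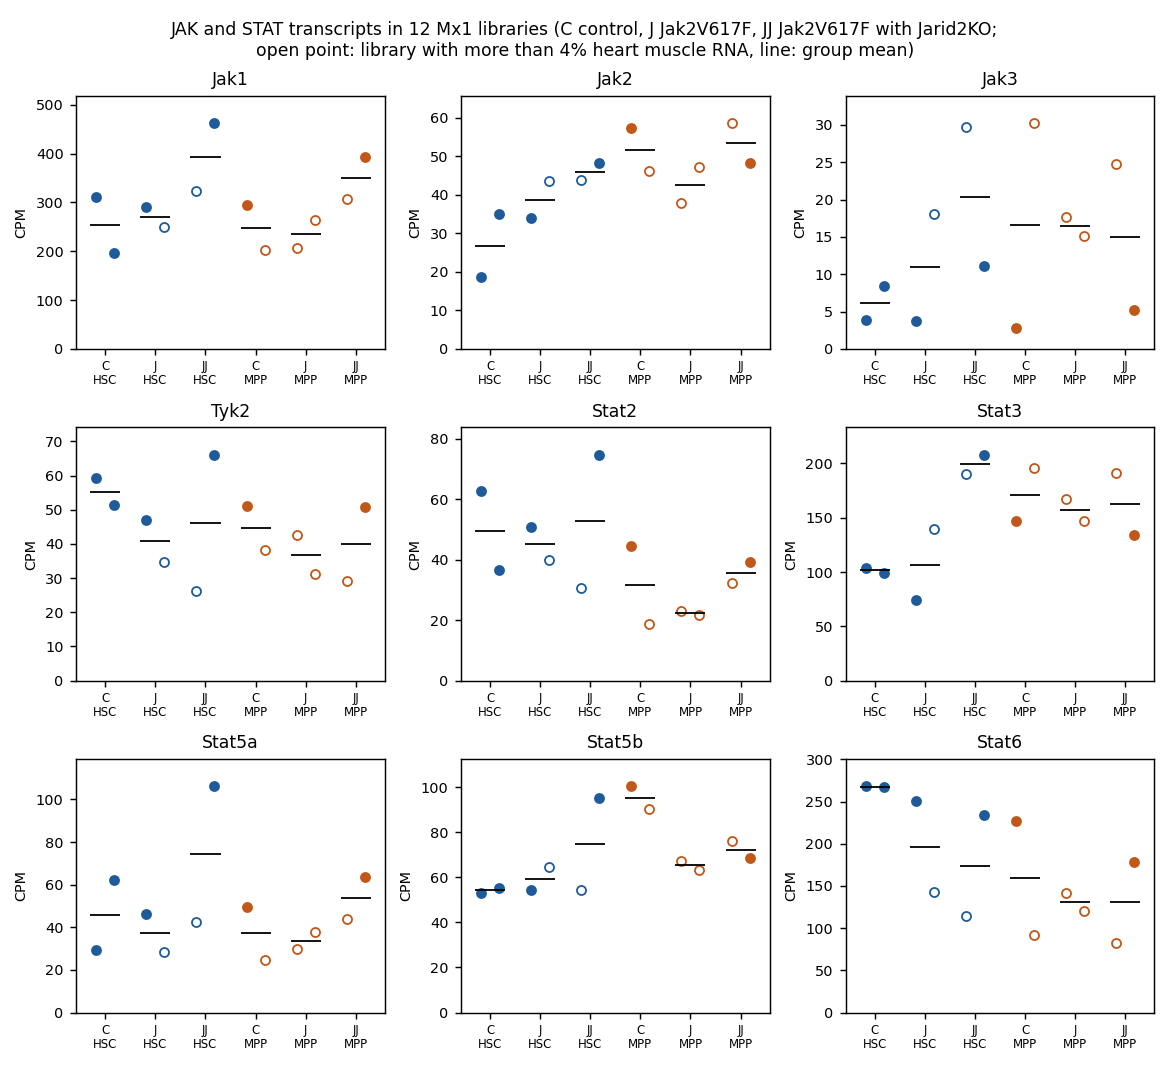
CPM (linear axes from 0) of the 9 genes in the 12 Mx1 libraries of 2 per group (C control, J Jak2V617F, JJ double mutant); lines are group means and open points are libraries with more than 4% of counts in heart muscle genes. In Jak3 all open points (15.1 to 30.3) lie above all filled points (2.85 to 11.1), and in Stat6 and Tyk2 all lie below.

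No member passed in any of the 11 Mx1 comparisons: 0 of 9 by edgeR, DESeq2 and limma-voom, beside 0% of 19616 genes past edgeR's threshold in each. The shares of all genes by DESeq2 and limma-voom are not given here, so their counts have no background beside them. At an unadjusted p under 0.05 there were 0 members too. The share of all genes there was 2.67% in control, 1.08% in Jak2V617F and 1.62% in the double mutant for MPP against HSC, and 1.52% in HSC and 1.35% in MPP for Jak2V617F against control. It was 4.68% and 3% for the double mutant against Jak2V617F, 6.37% and 4.71% for the double mutant against control, and 1.52% and 2.44% for the differences of the Jak2V617F and the added Jarid2KO effects between cell types. The sizes ran from -1.13 (Stat2, Jak2V617F MPP against HSC, interval -2.44 to 0.18) to 1.50 (Jak3, double mutant against control HSC, interval -0.91 to 3.91) over the 9 comparisons of groups. Members whose groups did not overlap in CPM are given beside the background, which is high with 2 libraries per group. In double mutant against Jak2V617F HSC, Jak1, Jak2 and Stat3 were higher in all libraries (3 of 9, beside 17.4% of all genes). In MPP these were Jak1, Jak2, Stat2, Stat5a and Stat5b (5 of 9, beside 16.9%), and the 2 Jak2V617F MPP libraries both belong to those with high heart RNA while the double mutant has 1 of each kind. In the TMM-scaled fit the log2 fold changes of these 5 members ran from 0.07 (Stat5b, interval -0.89 to 1.03) to 0.59 (Stat2). Against control, Tyk2 and Stat6 were lower in all Jak2V617F HSC (2 of 9, beside 13.3%), Stat5b was lower in all Jak2V617F MPP (1 of 9, beside 8.47%), 4 members were higher (beside 23.9%) and 1 lower (beside 11.9%) in double mutant HSC, and Jak1 was higher (1 of 9, beside 14.1%) and Stat5b lower (1 of 9, beside 7.98%) in double mutant MPP. Between MPP and HSC 5 of 9 members were apart in control (beside 24.9%), 3 in Jak2V617F (beside 45.4%) and 0 in the double mutant (beside 18.5%). The comparisons with Jak2V617F and with control share libraries. Control HSC has only libraries with low heart RNA, Jak2V617F MPP only libraries with high, and every other group 1 of each kind. Jak3, Stat2, Stat5a, Tyk2 and Stat6 differed with heart RNA, as given below. Where the groups compared are unlike in it, its part in the sizes and overlaps above was not told apart.

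**Figure D5:**
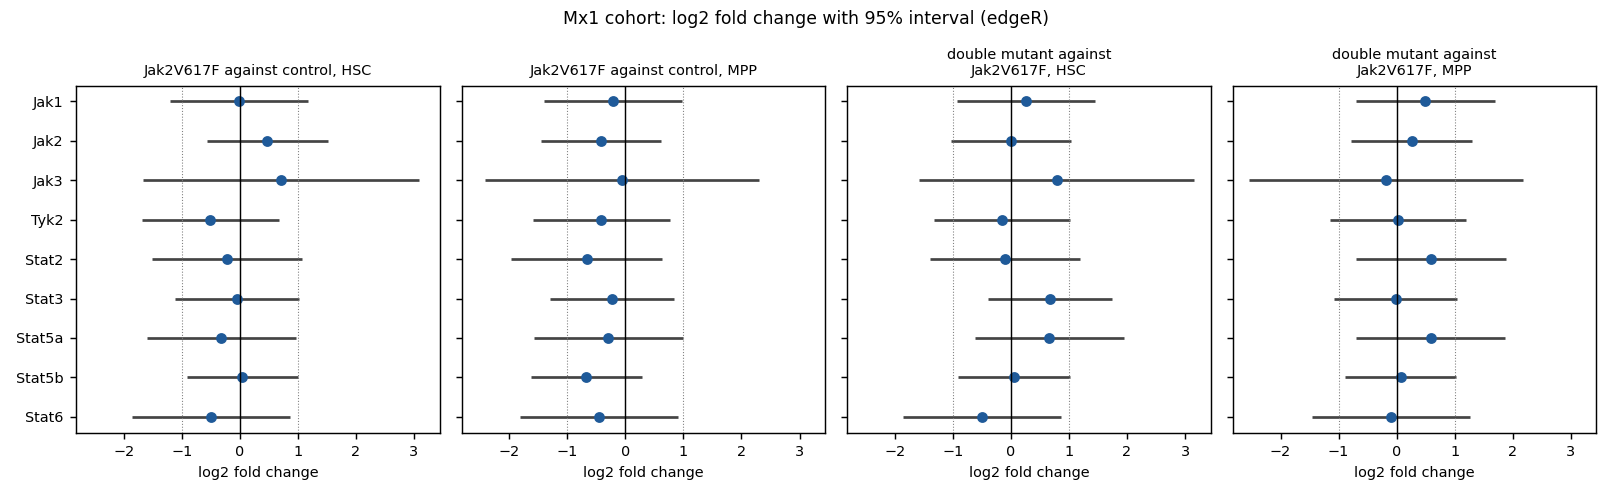
Log2 fold change (points) with its 95% interval (lines) from edgeR for the 9 genes in 4 Mx1 comparisons; dotted lines mark a log2 of 1 in either direction. Every interval includes 0, and that of Jak3 is the widest in each panel.

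The members were also read against the heart RNA of the libraries. That split was seen in these data and then used as a term beside the groups, so it is a description of libraries and not of a condition. Jak3 stood at 15.1 to 30.3 CPM (median 21.4) in the 6 libraries above 4% heart RNA and at 2.85 to 11.1 (median 4.54) in the 6 below, with no overlap (log2 2.32, SE 0.43, edgeR adjusted p = 3.8e-05). Stat6 stood at 82.8 to 143 CPM above and 178 to 268 below (log2 -1.07, SE 0.21, adjusted p = 7.26e-05), and Tyk2 at 26.1 to 42.5 and 47.1 to 66.1 (log2 -0.75, SE 0.25, adjusted p = 0.0165). Stat5a (log2 -0.89, adjusted p = 0.00585) and Stat2 (log2 -0.79, adjusted p = 0.0234) were also lower, with overlap. The other 4 did not pass, with Jak1 at -0.41, Stat3 at 0.42, Stat5b at -0.14 and Jak2 at 0.04. That makes 1 member higher and 4 lower, 5 of 9, beside 38.5% of all genes (20.2% higher and 18.3% lower). The calls of Tyk2 and Stat2 were lost when single libraries were left out, the count falling to 3 without either double mutant HSC library. Stroma and endothelium markers moved with this split too, from 405 to 740 CPM below to 3127 to 4449 above. The mitochondrial share of counts was 1.31 to 1.94% below and 4.96 to 6.74% above. The part of either in these values was not tested.

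With the heart term in the fit, 0 of 9 members passed in each of the 11 comparisons, while 2.75% of all genes passed in double mutant against Jak2V617F HSC (0.953% higher and 1.79% lower) and 0.591% in MPP (0.163% and 0.428%). Against control 2.34% and 1.58% of genes passed in the double mutant, 0.214% between its cell types and 0.0153% for the difference of the added Jarid2KO effect, and 0% in the other 5 comparisons. Pathway genes did pass there. In HSC, the receptor gene Il27ra rose by a log2 of 2.05, while Csf2rb, the chain shared by IL-3 family receptors, Csf3r, Ifngr1 and Ifnlr1 fell, 4 of 36 receptor genes tested. In MPP, Csf3r, the G-CSF receptor, fell (log2 -1.77). Of 15 STAT5 targets, 3 rose in HSC (Socs2 1.96, Pim1 1.39 and Bcl2l1 1.38 on the log2 scale) and 0 passed in MPP. Of 28 ISGF3 targets, 2 rose and 0 fell in each cell type, Ifi44 and Oasl2 in HSC and Rtp4 and Oasl2 in MPP, whereas Oasl2 fell in Vav Jarid2-KO MPP. Of 11 STAT6 targets 1 fell in each, Chil3, which granulocyte precursors also express. The HSC markers and the granulocyte and monocyte markers differed between these groups as given above. The macrophage and dendritic markers summed to 961 to 1706 CPM in double mutant HSC against 402 to 550 in Jak2V617F, and to 1240 to 2106 against 339 to 409 in MPP, without overlap. The part of these markers was not tested.

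Among themselves, the members' log2 levels over the 12 Vav libraries are compared as a description, since these points share cell types, genotypes and library effects. Stat5b ran with Stat5a and equally with Stat3 (Pearson r = 0.79 each on log2 values, and 0.73 each over the 11 libraries without the first Jarid2-KO MPP). Stat6 had r = 0.76 with Tyk2 and 0.75 with Stat2, and Tyk2 had 0.60 with Stat2. Jak2 ran against all 3, with r = -0.89 for Tyk2, -0.88 for Stat6 and -0.73 for Stat2 (-0.81, -0.87 and -0.73 without that library). The relation of Jak3 to Tyk2 depended on that library, at r = 0.86 with it and 0.53 without it. Stat2 ran against Stat5a more clearly without it (r = -0.83) than with it (r = -0.48).

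Of 10327 other genes searched, those with the level pattern most like each member over the 12 Vav libraries were named by a fixed rule. For the kinases they were Crebbp for Jak1 (r = 0.89), Naa30 for Jak2 (0.97), Hps1 for Jak3 (0.98) and Dhdds for Tyk2 (0.98). For the factors they were Adam17 for Stat2 (0.95), Fbxw9 for Stat3 (0.94), Eepd1 for Stat5a (0.96), Tcf25 for Stat5b (0.97) and Vps11 for Stat6 (0.95). The next in line were Atp6v1d, Tnks2, Dhrs11, Vps72, Cyp4f17, Cd82, Ipo13, Zbtb22 and Myc in the same order of members.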

How the data were processed

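RNA-seq was read from 1 table per library. Per the labels, libraries were made with the SMARTer Ultra Low kit from 3 to 5 ng of RNA. Per the submitters' processing notes the build was mm10. The tools listed there are Partek 6.6, HTSeq 0.8.0, featureCounts 1.4.5, Subread and STAR 2.0.4, whose roles are not given in the sources used here. The deposited counts are raw and per gene, the deposited CPM column scales them to the library total, and the deposited RPKM column divides CPM by gene length. Values recomputed from the counts differed by at most 5.09e-11. Groups and replicate numbers came from the labels, with no batch named.

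Each cohort was fitted on its own in edgeR 4.0.16 (R 4.3.3) on the counts, with filterByExpr (minimum count 10, total 15), TMM and robust quasi-likelihood F tests, 16 contrasts in all, adjusted by Benjamini-Hochberg over all genes (15818 Vav, 19616 Mx1; threshold 0.05). The SE is the log2 fold change over the square root of F. Groups did not overlap where every library of one lay above every library of the other in CPM. Likeness used log2(TMM CPM + 1) over genes with a mean log2 CPM of at least 2. The pipeline was run on simulated data with 200 changed genes to check the fitted sizes. That run is not used as support for any count of members. With 2 libraries per Mx1 group, a count of 0 there does not show that no change was present. Alternatives used DESeq2 1.42.0, limma 3.58.1, other filters, blocks and left-out libraries.

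The members and gene lists were chosen with earlier results of these data known. Genes named are all members, up to 4 pathway genes past the test per list (all 5 ISGF3 targets, and 5 receptors with the heart term, were named after their values were seen, and some pathway genes are not reported here), and the 2 genes most like each member. The rule listed 9 names and 9 are reported. For the Mx1 cohort the series description names Jarid2-KO mice in place of Jak2V617F, and groups follow the sample labels.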

Additional observations from a re-analysis of the deposited data

How the results depend on the processing

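In 215 of 218 recomputed counts of members past the test, over 16 comparisons, the count was 0 as in the main analysis. The other 3 were 1 in Vav HSC and 1 in Vav MPP with limma-voom, both Stat2, and 1 in Vav MPP without the third Jarid2-KO library, Stat5a. The cause was not tested, and without that library the calls over all genes in Vav MPP also rose, from 81 higher and 69 lower to 1072 and 440. Over the left-out libraries of Vav MPP the count ran from 0 to 1, and in the other comparisons it was 0. Of the members' own values, 3 of 657 in the Vav cohort and 0 of 1305 in the Mx1 cohort passed, and 63 and 155, none of them called, had the other sign. Replicate numbers were not taken as pairs, since the labels have HSC and MPP sorted from pools without saying that a number marks a pool, and not every pair correlated over 0.1: deviations of HSC and MPP libraries with the same genotype and number correlated from -0.063 to 0.367 in the Vav cohort (over 0.1 in 2 of 6 pairs). In the Mx1 cohort, where the deviations of 2 libraries mirror each other, the 3 distinct values were -0.070, 0.077 and 0.692. With the replicate block 0 members passed in every comparison, and over all genes the calls in Vav HSC went from 40 higher and 50 lower to 21 and 24. The pool as a block was fitted only for MPP against HSC and for the differences of effects between cell types, where 0 members passed. It was not fitted for genotypes compared within a cell type.

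For the split by heart RNA, chosen after seeing the data, the count of 5 was 6 with DESeq2 size factors or the Wald test, both adding Jak1, and 5 with no filter, with the stricter filter of 20 counts, with limma-voom and with the replicate block. Without single libraries it ran from 3 to 5. Calls over all genes depended on the tool: 325 higher and 365 lower in Vav HSC with DESeq2, 709 and 710 with limma-voom, 427 and 401 with no filter, and 159 and 134 with only the groups compared; 722 and 387, 267 and 194, 918 and 388, and 10 and 9 in Vav MPP. The fit of only the groups compared was not run for the difference of the Vav effects, which uses all 4 groups. Gene lists were recomputed only with the heart term and without the first Jarid2-KO MPP library, where 4 ISGF3 targets fell in place of 5, Usp18 no longer passed and the receptor Ghr rose. With 2 libraries per Mx1 group, and Jak3 at 41 to 503 counts, the intervals of the Mx1 fold changes are wide.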
